A study of Rattus norvegicus with 6 samples.

Results

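Transcripts of the Notch pathway were compared between control and ShSuz12 IEC-6 cells for 10 genes: the receptors Notch1, Notch2 and Notch3, the ligands Jag1, Jag2 and Dll1, the DNA-binding effector Rbpj, and the target genes Hes1, Hey1 and Hey2. The list of genes was drawn up with earlier results of these data in view, and every probe set annotated to exactly 1 of these symbols was taken, which gave 13 of the 31042 probe sets tested and 10 of the 14217 genes these probe sets name. Notch1 had 2 probe sets, Rbpj had 3 and each of the other genes had 1.

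IEC-6 is a cultured epithelial line from rat small intestine that is used as a model of crypt cells. Both groups carried a lentiviral short hairpin construct and were selected with puromycin: ShSuz12 cells expressed a hairpin against Suz12, a core subunit of Polycomb repressive complex 2 (PRC2), the complex that trimethylates histone H3 at lysine 27 at silenced genes, and control cells expressed a scrambled hairpin. The efficiency of infection was estimated at 25% in the labels, and each group was 1 selected population of 1 line, so that the population and the depletion cannot be told apart. Total RNA from 3 independent experiments was hybridized to 6 Affymetrix rat genome arrays, 3 per group. The values are deposited log2 values from robust multi-array average (RMA), on which a difference of 1 is a 2-fold change. All p-values measure the spread between these experiments.

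The sequence targeted in ShSuz12 cells is shown because it defines the group.
Suz12 target: gctgacaatcaaatgaatcat
Suz12 itself had log2 values of 8.45, 8.55 and 8.77 in control replicates 1 to 3 and 5.82, 5.77 and 5.91 in ShSuz12 replicates 1 to 3. The groups did not overlap, and every ShSuz12 array was lower, with a log2 fold change of -2.76 and a 95% confidence interval of -2.96 to -2.55 (adjusted p = 2.78e-07 by limma). Array medians ran from 6.154 to 6.175 in control samples and from 6.26 to 6.274 in ShSuz12 samples. Of 16 epithelial marker genes, 3 were higher, 2 were lower and 11 did not pass an adjusted p under 0.05 by limma. Of all genes, 17.1% were higher and 23.3% were lower. The summed linear signal of the 16 markers was 11380 to 12230 in control samples and 9429 to 9751 in ShSuz12 samples. Those lower were Cdh1, the brightest marker of the list, by 0.76 on the log2 scale (from a mean of 12.58 to 11.82), and Krt8 by 0.41, whereas Cdx2 and Krt19 were 2.95-fold and 2.28-fold higher and Tjp1 was 1.13-fold higher. The epithelial markers Cdh1, at its brighter probe set, and Krt8 lay at the 99.3rd and 90.2nd percentile of control probe sets. The other probe set of Cdh1 lay at the 6.44th and did not pass (log2 fold change -0.21, adjusted p = 0.168 by limma). Epcam, Krt18 and Vil1 lay at the 5.92nd, 8.15th and 27.6th. Tjp1, Ocln and Cldn3 lay at the 98.6th, 70.2nd and 55.3rd at their brightest probe sets. By the mean over the 6 arrays, 6 of the 16 markers lay above the 50th percentile and 7 below the 30th. Several defining epithelial markers were thus dim at these probe sets, and heights of different probe sets are not comparable.

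Notch receptors are single-pass membrane proteins that bind Delta and Jagged ligands on neighbouring cells. Binding lets ADAM proteases and then gamma-secretase cut the receptor, and the freed intracellular domain enters the nucleus, joins Rbpj and switches on genes such as those of the Hes and Hey families of basic helix-loop-helix repressors. In the intestinal crypt the pathway is known for keeping progenitor cells proliferating and for holding back the secretory lineages.

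Rbpj is known to bind the core sequence TGGGAA, and the promoters of the target genes are shown first because these genes are known targets of the pathway. Whether their transcripts respond to Notch in IEC-6 cells was not tested. The 250 bases before the transcription start, from RefSeq on the rat build GRCr8, are printed with matches to TGGGAA in capitals, whichever strand holds them (a match on the reverse strand reads TTCCCA). The table held windows of 9 of the 10 genes and none of Hey1.
Hes1 promoter, chr11:84213046-84213295, minus strand: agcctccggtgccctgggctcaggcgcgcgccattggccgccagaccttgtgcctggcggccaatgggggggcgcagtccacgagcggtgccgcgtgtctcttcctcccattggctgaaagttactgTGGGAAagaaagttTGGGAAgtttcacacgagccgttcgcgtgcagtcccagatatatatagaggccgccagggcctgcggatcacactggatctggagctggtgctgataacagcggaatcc
Hey2 promoter, chr1:28640850-28641099, plus strand: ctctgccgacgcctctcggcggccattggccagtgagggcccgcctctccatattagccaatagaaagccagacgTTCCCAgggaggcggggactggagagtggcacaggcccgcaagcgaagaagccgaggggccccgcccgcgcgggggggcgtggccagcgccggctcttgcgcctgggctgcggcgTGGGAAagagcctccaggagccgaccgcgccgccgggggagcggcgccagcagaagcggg
Hes1 had 2 matches in the forward direction, at -123 and -109 from the start. Hey2 also had 2, on the reverse strand at -175 and on the forward strand at -60. In windows of 300 bases (250 before and 50 after the start), Dll1 had 2 matches, Notch3 had 1 and the pair of Rbpj windows had 1 and 2. The Rbpj windows overlap, and the match at -242 in the former is the same site as that at -64 in the latter. The windows of Notch1, Notch2, Jag1 and Jag2 held none. Of all 33469 windows of this length, 25.7% held at least 1 match on either strand and 3.85% held 2 or more. At least 1 match to this short motif is thus common, and 2 or more, as in Hes1 and Hey2, are less so. The windows of these genes were not tested against all windows. The E-box CACGTG, searched on both strands, was in 6.42% of all windows and in none of those of these genes. These matches describe the letters of the windows, and binding was not measured.

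Of the 13 probe sets, 3 were higher in ShSuz12 cells (both of Notch1 and that of Jag2), 2 were lower (Jag1 and Hey2) and 8 did not pass an adjusted p under 0.05 by limma. Among all probe sets tested, 34.3% passed in either direction, 14.8% higher and 19.5% lower, so the share of the Notch probe sets that passed is near the background. With each array's median subtracted, 3576 of all probe sets were higher and 11752 lower, in place of 4607 and 6054. All 5 that passed changed by at least 2-fold, as did 3.49% of all probe sets, of which 3.10% were higher and 0.396% were lower. The median log2 fold change of the 13 was 0.09, and that of all probe sets was -0.05. Each of the 5 kept its direction, an adjusted p under 0.05 and a change of at least 2-fold under every alternative that tested it.

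**Figure D1:**
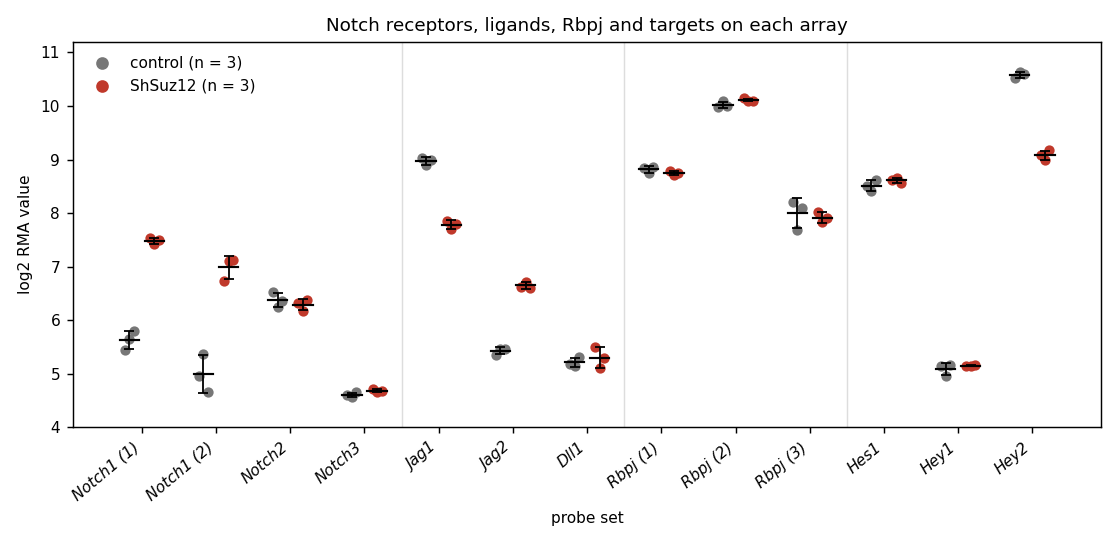
Log2 RMA value (vertical axis) of each of the 13 probe sets in the 3 control (grey) and 3 ShSuz12 (red) samples, with the group mean as a long bar and its SD as whiskers; numbers in parentheses tell apart the probe sets of Notch1 and Rbpj, in the order of the text. The groups stand well apart at both Notch1 probe sets, Jag1, Jag2 and Hey2, and heights of different probe sets are not comparable.

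Of the receptors, Notch1 rose about 4-fold, and Notch2 and Notch3 did not pass. Notch1, the receptor best known from the crypt progenitors, had values of 5.45, 5.64 and 5.79 in control samples and 7.53, 7.42 and 7.49 in ShSuz12 samples at probe set 1371491_at. The other probe set, 1390426_at, had 4.95, 5.36 and 4.66 in control samples and 6.74, 7.10 and 7.13 in ShSuz12 samples. At both, every ShSuz12 sample was above every control sample. The log2 fold change was 1.86 at the former (standard error 0.09, 95% confidence interval 1.65 to 2.06, adjusted p = 2.54e-06) and 2.00 at the latter (standard error 0.18, interval 1.6 to 2.41, adjusted p = 7.72e-05), or 3.62-fold and 4.01-fold. The signal moved from the 43.3rd to the 65.1st percentile of the array at 1371491_at and from the 34.2nd to the 58.9th at 1390426_at, from below to above the middle of the array. In order of size these were rises 348 and 291 among the 961 probe sets called at least 2-fold higher.

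Notch2, a receptor also expressed in the crypt, had values of 6.52, 6.25 and 6.35 in control samples and 6.32, 6.17 and 6.37 in ShSuz12 samples. The groups overlapped, and the log2 fold change of -0.09 did not pass (interval -0.28 to 0.11, adjusted p = 0.493). Notch3, a receptor best known from vascular smooth muscle, had 4.60, 4.56 and 4.65 in control samples and 4.72, 4.66 and 4.68 in ShSuz12 samples. The ShSuz12 values of Notch3 lay just above the control values, without overlap, and the log2 fold change of 0.09 did not pass (interval -0.04 to 0.21, adjusted p = 0.251). Groups that did not overlap were found for 47.5% of all probe sets, 19.4% higher and 28.1% lower in ShSuz12 samples, and for 6 of the 13, Notch3 and the 5 that passed. Notch3 stayed below the 30th percentile of the array in both groups, at 27.9 and 28.8.

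Both Jagged ligands changed, in opposite directions. Jag1 had values of 9.03, 8.89 and 8.99 in control samples and 7.86, 7.70 and 7.79 in ShSuz12 samples. All ShSuz12 samples were below all control samples, and Jag1 fell by 1.18 on the log2 scale (2.27-fold, standard error 0.06, adjusted p = 5.35e-06), from the 82.9th to the 69.0th percentile. Jag2 had values of 5.35, 5.47 and 5.47 in control samples and 6.62, 6.72 and 6.61 in ShSuz12 samples. Here all ShSuz12 samples were above all control samples, and the log2 fold change was 1.22 (2.33-fold, standard error 0.06, adjusted p = 3.22e-06), with the signal moving from the 40.8th to the 54.6th percentile.

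Dll1, a Delta ligand that secretory progenitors present to their neighbours, had values of 5.19, 5.14 and 5.31 in control samples and 5.49, 5.11 and 5.30 in ShSuz12 samples. The lowest ShSuz12 value was below every control value and the highest was above them, and the log2 fold change was 0.09 (interval -0.14 to 0.31, adjusted p = 0.527). Its signal stayed near the 38th percentile of the array, at 37.8 and 37.9.

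**Figure D2:**
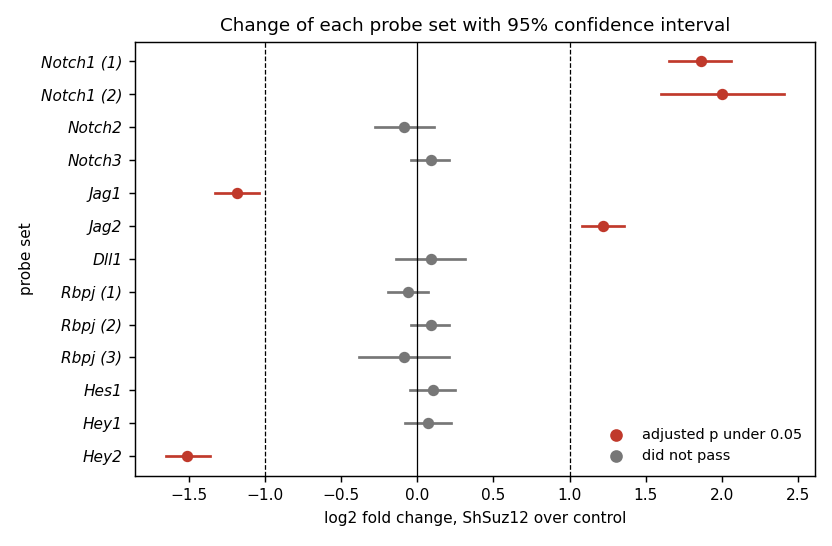
Log2 fold change, ShSuz12 over control, of each probe set (points) with its 95% confidence interval (lines); red marks an adjusted p under 0.05 and dashed lines mark 2-fold. Both Notch1 probe sets and Jag2 lie right of the 2-fold line, Jag1 and Hey2 lie left of it, and the other 8 lie between -0.09 and 0.10.

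Rbpj, through which all Notch receptors act on DNA, did not pass at any of its 3 probe sets. At 1379302_at it had values of 8.85, 8.74 and 8.86 in control samples and 8.79, 8.72 and 8.75 in ShSuz12 samples, with a log2 fold change of -0.06 (interval -0.19 to 0.07, adjusted p = 0.443), which became -0.16 and passed with each array's median subtracted (adjusted p = 0.0429). At 1381969_at the values ran from 9.98 to 10.09 in control samples and from 10.09 to 10.14 in ShSuz12 samples, with a log2 fold change of 0.09 (interval -0.04 to 0.21, adjusted p = 0.268). At both the groups met or overlapped. At 1392668_at the values were 8.21, 7.69 and 8.10 in control samples and 8.02, 7.83 and 7.90 in ShSuz12 samples, with a log2 fold change of -0.09 (interval -0.38 to 0.21, adjusted p = 0.655). Control replicate 2 was the lowest of the 6 there: without it the log2 fold change was -0.24 (adjusted p = 0.0468), and without control replicate 1 it was 0.02 (adjusted p = 0.931).

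Of the target genes, Hey2 fell and Hes1 and Hey1 did not pass. Hey2, a repressor best known from heart and vessel development, had values of 10.53, 10.64 and 10.59 in control samples and 9.08, 9.00 and 9.17 in ShSuz12 samples. The groups were far apart, with a fall of 2.84-fold (95% confidence interval of the log2 fold change -1.65 to -1.36, adjusted p = 1.21e-06). Hey2 stayed a bright probe set in both groups, at the 94.9th percentile in control and the 84.5th in ShSuz12 cells. It was fall 27, and Jag1 fall 67, in order of size among the 123 probe sets called at least 2-fold lower.

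Hes1, the main Notch-driven repressor of secretory fate in the crypt, had values of 8.51, 8.42 and 8.61 in control samples and 8.61, 8.66 and 8.57 in ShSuz12 samples. The ShSuz12 samples lay at the upper end of the control samples and overlapped them, with a log2 fold change of 0.10 (interval -0.05 to 0.25, adjusted p = 0.269). Hey1, the close relative of Hey2, had 5.14, 4.96 and 5.17 in control samples and 5.14, 5.15 and 5.17 in ShSuz12 samples. These values also overlapped, with a log2 fold change of 0.07 (interval -0.08 to 0.22, adjusted p = 0.482). Hes1 was bright, near the 78th percentile at 77.6 and 79.1, and Hey1 was dim, at the 36.0th in both groups. Over all 8 probe sets that did not pass, the outer bounds of the confidence intervals in the main fit were -0.38 and 0.31. Changes over 1.30-fold thus lay outside these intervals. The bounds hold for the deposited scaling only, since subtracting each array's median shifted every log2 fold change by -0.10.

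To ask whether members of 1 family responded differently, the difference between a pair of them was taken within each array and set to 0 at the control mean, 1 probe set per gene, the brightest. Jag2 less Jag1 was -0.13, 0.12 and 0.01 in control samples and 2.30, 2.56 and 2.36 in ShSuz12 samples. The balance between the Jagged transcripts thus moved by 2.40 on the log2 scale, or 5.29-fold towards Jag2. Notch2 less Notch1 was 0.33, -0.14 and -0.19 in control samples and -1.97, -2.00 and -1.86 in ShSuz12 samples, a move of -1.94, or 3.84-fold towards Notch1. Notch3 less Notch1 was 0.18, -0.06 and -0.12 in control samples and -1.79, -1.74 and -1.78 in ShSuz12 samples, a move of -1.77 (3.41-fold). Hey2 less Hey1 was -0.10, 0.18 and -0.07 in control samples and -1.57, -1.65 and -1.50 in ShSuz12 samples, a move of -1.57, or 2.97-fold away from Hey2. Notch3 less Notch2 was -0.15, 0.08 and 0.07 in control samples and 0.18, 0.26 and 0.08 in ShSuz12 samples, a move of 0.17 (1.13-fold) with groups that met at 0.08 to 2 decimals. Without control replicate 1 that move was 0.10, and its exact permutation p ran from 0.10 to 0.40 over the omissions of 1 array. The groups of the other 4 pairs were well apart. For all 5 pairs the exact two-sided permutation test over samples gave p = 0.10 (adjusted p = 0.10 over the 5 pairs), the smallest that 3 samples against 3 allow, so that it could not pass.

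**Figure D3:**
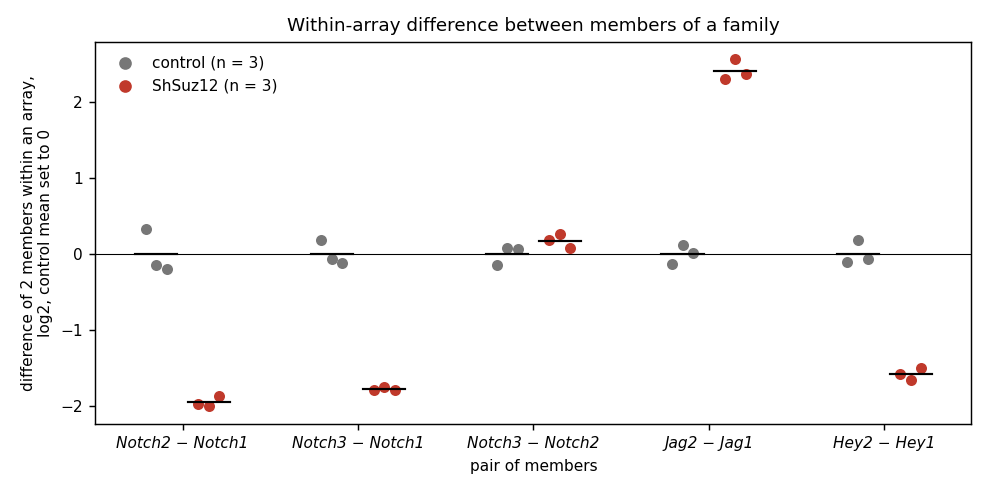
Difference between members of a family within each array (vertical axis, log2, with the control mean of each pair set to 0) in the 3 control (grey) and 3 ShSuz12 (red) samples, bars at group means. Jag2 less Jag1 moved up to a mean of 2.40, the differences from Notch1 and Hey2 less Hey1 moved down, and Notch3 less Notch2 moved by 0.17.

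Outside these 10 genes, the probe sets whose 6 centred values lay nearest to the largest rise and the largest fall were looked up as a description. Nearest to Notch1 at 1390426_at, by Euclidean distance on the log2 scale, were Rragd (0.18), a GTPase that relays amino acid supply to mTORC1, Bmp2 (0.28), a bone morphogenetic protein, and Abcg1 (0.29), a cholesterol transporter. Their log2 fold changes were 1.90, 1.89 and 2.14. Nearest to Hey2 were Cavin2 (0.10), a coat protein of caveolae, Lurap1l (0.11) and Deptor (0.12), an inhibitor of mTOR, with log2 fold changes of -1.55, -1.45 and -1.50.

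The rest of the pathway was described by 84 further genes in 6 lists, of which 70 were measured, each by its brightest probe set. Of these, 14 were higher, 10 were lower and 46 did not pass by limma, where 17.1% of all 14217 genes measured were higher and 23.3% were lower (40.5% in either direction). With each array's median subtracted, 11 were higher and 17 were lower. Their median log2 fold change was 0.01, against -0.05 over all genes. At least 2-fold rises were found for 3 of the 70 and at least 2-fold falls for 0, against 3.82% and 0.422% of all genes (4.24% in either direction).

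The 3 rises of at least 2-fold were those of Dlk1, Mfap5 and Lgr5. Among 10 further receptors and ligands, 4 were higher, 1 was lower and 5 did not pass. Dlk1, a membrane protein related to the Delta ligands that lacks the domain for binding Notch in the usual way, had values of 6.00, 5.71 and 5.29 in control samples and 7.77, 7.52 and 7.61 in ShSuz12 samples. Mfap5, a microfibril protein that can bind Jagged1 and Notch1, had 5.93, 5.99 and 6.06 in control samples and 8.44, 8.22 and 8.27 in ShSuz12 samples. Neither gene's groups overlapped, and the log2 fold changes were 1.97 for Dlk1 (3.91-fold, standard error 0.16, adjusted p = 5.49e-05) and 2.32 for Mfap5 (4.98-fold, standard error 0.07, adjusted p = 2.58e-07).

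Of 11 genes of receptor processing and glycosylation, 2 were higher, 2 were lower and 7 did not pass. Adam17, a protease that can release Notch receptors and many other surface proteins, had 10.06, 10.13 and 10.03 in control samples and 10.99, 11.00 and 10.96 in ShSuz12 samples. It rose by 0.91 (standard error 0.05, adjusted p = 7.68e-06), just under 2-fold. Adam10, the protease that makes the ligand-dependent cut, fell by 0.47 at the brighter of its probe sets (adjusted p = 0.0246, standard error 0.13). Its other probe set had 9.88, 8.94 and 9.84 in control samples and 9.09, 8.93 and 8.88 in ShSuz12 samples, with a log2 fold change of -0.59 that did not pass (adjusted p = 0.0823), and control replicate 2 lay among the ShSuz12 samples there.

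Of 11 genes of ligand and receptor endocytosis, turnover and inhibition, 3 were higher, 1 was lower and 7 did not pass. The largest rises were those of Dtx3l, an E3 ubiquitin ligase of the Deltex family, by 0.98 (1.98-fold, standard error 0.05, adjusted p = 3.61e-06), and of Fbxw7, the ubiquitin ligase subunit that marks the Notch intracellular domain for degradation, by 0.95 (standard error 0.10, adjusted p = 1.52e-04). The other probe set of Fbxw7 rose by 1.11 (standard error 0.15, adjusted p = 7.55e-04).

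Among 18 nuclear cofactors and corepressors, 3 were higher, 3 were lower and 12 did not pass. The largest changes were in Groucho family corepressors, in opposite directions: Tle1 fell by 0.64 (standard error 0.08, adjusted p = 4.92e-04) and Tle3 rose by 0.57 (standard error 0.06, adjusted p = 1.53e-04). Of 8 further Hes and Hey family genes, 0 were higher, 2 were lower and 6 did not pass. Those that fell were Bhlhe41, a relative known from the circadian clock, by 0.55 (standard error 0.07, adjusted p = 4.54e-04) and Hes6, a family member that counters Hes1, by 0.35 (standard error 0.05, adjusted p = 8.65e-04).

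Among 12 intestinal lineage and stem cell genes listed as downstream of Notch, 2 were higher, 1 was lower and 9 did not pass. Whether these genes respond to Notch in IEC-6 cells was not tested. The third rise of at least 2-fold in the pathway lists was Lgr5, a crypt stem cell receptor, which had values of 4.14, 4.33 and 4.26 in control samples and 7.70, 7.98 and 7.81 in ShSuz12 samples. The groups were far apart (adjusted p = 5.43e-08). Named after their values were seen, the other genes that passed were Agr2, a secretory cell protein, with a rise of 0.84 (adjusted p = 5.56e-05), and Klf4, a goblet cell transcription factor, with a fall of 0.25 (adjusted p = 0.00987). Of the 12, 7 lay below the 30th percentile of the array.

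**Figure D4:**
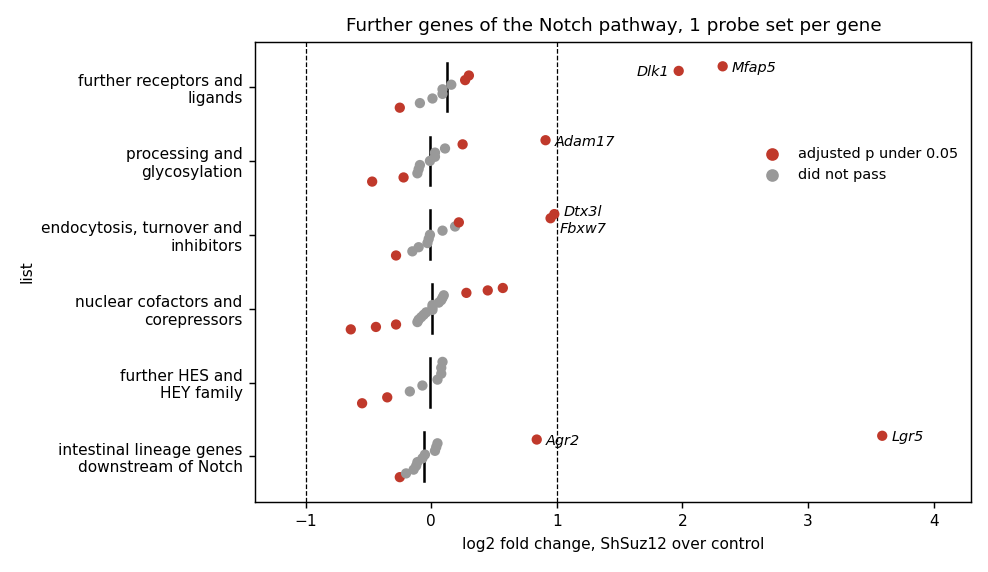
Log2 fold change, ShSuz12 over control, of 70 further Notch pathway genes in 6 lists, 1 probe set per gene; red points passed an adjusted p under 0.05, the short black bars are list medians and the dashed lines mark 2-fold. Mfap5, Dlk1 and Lgr5 lie beyond 2-fold higher, and no gene lies beyond 2-fold lower.

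Markers of other cell types were counted beside these changes. Of 15 fibroblast and smooth muscle markers, 7 were higher, 2 were lower and 6 did not pass, with 5 at least 2-fold higher. Of all genes, 17.1% were higher, 23.3% were lower and 3.82% were at least 2-fold higher. The 5 were the matrix genes Col1a2, Col3a1, Dcn and Lum and the receptor Pdgfrb. Smooth muscle genes went both ways by limma. Myh11 at its brighter probe set (0.65, adjusted p = 0.00153) and Des (0.36, adjusted p = 0.00656) were higher. Acta2 (-0.66, adjusted p = 4.22e-05) and Tagln (-0.35, adjusted p = 0.00142) were lower. The summed linear signal of the 15 was 29690 to 32370 in control samples and 41870 to 43570 in ShSuz12 samples. Bright genes weigh most in such a sum, and Col3a1 rose from a log2 mean of 11.11 to 13.44. The likewise bright Col1a1 (0.25, adjusted p = 0.0550 by limma) and Vim (-0.06, adjusted p = 0.388) did not pass. The median log2 fold change of the 15 was 0.25. Of 10 endothelial markers measured, 3 were higher, 0 were lower and 7 did not pass, and 0 lay above the 50th percentile of the array. Those higher were Erg (2.54-fold, adjusted p = 2.34e-05), Kdr (1.72-fold) and Flt1 (1.57-fold), which lay at the 25.1st, 16.1st and 27.1st percentile in control samples and the 44.3rd, 30.4th and 36.7th in ShSuz12 samples. The summed signal was 255.4 to 261.7 in control samples and 310.4 to 339.4 in ShSuz12 samples. None of the 3 defining genes Pecam1, Vwf and Tie1 passed, and they lay at the 6.93rd, 28.4th and 25.1st percentile in control samples and the 5.74th, 27.9th and 23.4th in ShSuz12 samples. Of 11 leukocyte markers measured, 1 was higher, 3 were lower and 7 did not pass, with 0 above the 50th percentile and sums of 261.9 to 264.8 and 243.0 to 257.0. Of 10 neuronal markers, 2 were higher, 1 was lower and 7 did not pass, with sums of 487.3 to 502.4 in control samples and 454.6 to 480.2 in ShSuz12 samples. Stmn2, the brightest of the 10, fell from a log2 mean of 7.83 to 7.35, and the median log2 fold change of the 10 was 0.08. These counts and sums used the brightest probe set of each gene. At dimmer probe sets, Map2 rose 2.97-fold (adjusted p = 1.46e-06 by limma) and Rbfox3 rose by 0.25 (adjusted p = 0.00936). Stmn2, the gene counted as lower, fell by 0.60 at its dimmer probe set (adjusted p = 6.51e-05). Vim, an intermediate filament of mesenchymal cells, was at the 99.9th percentile in both groups. The part of these markers in the changes of Notch1, Jag1, Jag2 and Hey2 was not tested, and in bulk RNA fewer cells of a type and less RNA per cell cannot be told apart.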

How the data were processed

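Gene expression was measured in IEC-6 cells in 3 control and 3 ShSuz12 samples, grouped by their labels. The deposited log2 values were made by the authors with FlexArray by RMA, which corrects background, normalizes the arrays together and summarizes each probe set to 1 value per array. From these values, 57 control probe sets were left out and 31042 were compared by a two-sided moderated test (limma 3.58.1, functions lmFit and eBayes, R 4.3.3) with Benjamini-Hochberg adjustment over all probe sets and a call at an adjusted p under 0.05. The scanner files and present calls were not used here. The number of arrays limits the precision.

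The platform annotation gave 20826 probe sets 1 symbol and 436 several, and 9780 were not listed. Where 1 value per gene was needed (14217 genes), the brightest probe set was used. Promoters came from RefSeq (GRCr8). The 10 Notch genes and the other lists were chosen with earlier results of these data known. Every probe set of the 10 genes was named, and from each pathway list the genes that passed at 2-fold or, failing these, up to 2 with the largest change that passed. For the largest rise and fall, the 3 nearest genes with 1 symbol were named. Pairs of family members were compared by an exact permutation test over all splits of the arrays, with Benjamini-Hochberg adjustment over the pairs (scipy 1.17.1). The fit was tested on simulated data. Alternatives were the methods' t-test, a replicate block, robust eBayes with an intensity trend, the 2-fold limit, quantile normalization run again, median subtraction, genes averaged over their probe sets, filters at the 40th and 60th percentile (in at least 2 of the 3 arrays of a group) and the omission of each array in turn.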

Additional observations from a re-analysis of the deposited data

How the results depend on the processing

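The calls of Notch1, Jag1, Jag2 and Hey2 held under every alternative run that tested them; Jag2 was not among the 13097 probe sets above the 60th percentile. Log2 fold changes ran from 1.76 to 1.94 and from 1.84 to 2.19 for the Notch1 probe sets, from 1.12 to 1.24 for Jag2, from -1.29 to -1.14 for Jag1 and from -1.61 to -1.47 for Hey2. Without 1 array, 3 of the 13 probe sets were higher throughout and 2 to 3 were lower, 11 to 13 pathway genes were higher and 8 to 10 lower, and 3960 to 4490 of all probe sets were higher and 4572 to 5801 lower.

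Subtracting each array's median lowers every log2 fold change by 0.10 and moves the median of all probe sets from -0.05 to -0.15. It gave 11 pathway genes higher and 17 lower, in place of 14 and 10, and 3576 and 11752 of all probe sets, in place of 4607 and 6054. It turned the sign of 5 probe sets that did not pass: Notch3, Dll1 and Rbpj at 1381969_at (-0.01 each), Hes1 (-0.00099) and Hey1 (-0.03). Hey1 also turned with a second quantile normalization (-0.00061), Dll1 without ShSuz12 replicate 1 (-0.0039, range without 1 array up to 0.18) and Rbpj at 1392668_at without control replicate 1 (0.02, range down to -0.24). Rbpj at 1379302_at passed after median subtraction (-0.16, adjusted p = 0.0429).

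With the 60th percentile filter, which tests fewer genes, 6 pathway genes were lower and 2948 of all probe sets were higher. With the 2-fold limit, 3 pathway genes were higher and 0 lower, and 961 and 123 of all probe sets. Between samples of the same replicate number, the correlations of deviations from the group means were 0.0172, -0.0424 and -0.0641. They show no shared effect along the numbers, and whether the experiments paired the samples is not known. With the number as a replicate block, 3 probe sets of the Notch genes were higher and 2 lower, and 13 pathway genes were higher and 10 lower.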
